A study of Brachypodium distachyon with 6 samples.

Results

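Of 31694 loci in the transcript count table of Brachypodium distachyon roots, 6060 had more than 1 annotated transcript, and 1150 of these (19.0%) had at least 2 transcripts that could be counted apart. A locus was taken when 2 or more of its transcripts each had 100 bp or more of exon covered by no other transcript in the table, a choice made from the annotation alone. These 1150 loci held 2395 countable transcripts, together with 682 transcripts below 100 bp that were not used for transcript levels and shares. The treated roots came from plants of the reference line Bd21 of this small grass, grown for 7 days on a medium low in nitrogen, soaked whole for 1 h in 50 µM 2,4-D and sampled 7 days later, when they bore nodule-like structures (3 libraries, 2,4-D). They were set against roots of untreated Bd21 plants grown on the same medium (3 libraries, untreated), and it is not given whether these were soaked without the hormone. 2,4-D is a synthetic auxin, and nodule-like structures are swellings of the root that form without bacteria. RNA came from roots and not from sorted cells, so a transcript made in fewer cells and a transcript made at a lower level per cell cannot be told apart.

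One plant gene can give several messenger RNAs. Transcription can start at another promoter and give another first exon, an inner exon or splice site can be used or skipped, an intron can be left in, or cleavage and polyadenylation can occur at another site and give another last exon. Retained introns are a common form of alternative splicing in plants, and RNAs that keep one often stay in the nucleus or are degraded. An alternative first exon changes the 5' leader and at times the start of the protein, and an alternative last exon changes the 3' untranslated region or the end of the protein. Loci are known here by their identifiers alone, with coordinates of annotation version 2.1, so no function is given for any locus here and root marker genes could not be checked.

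**Figure D1:**
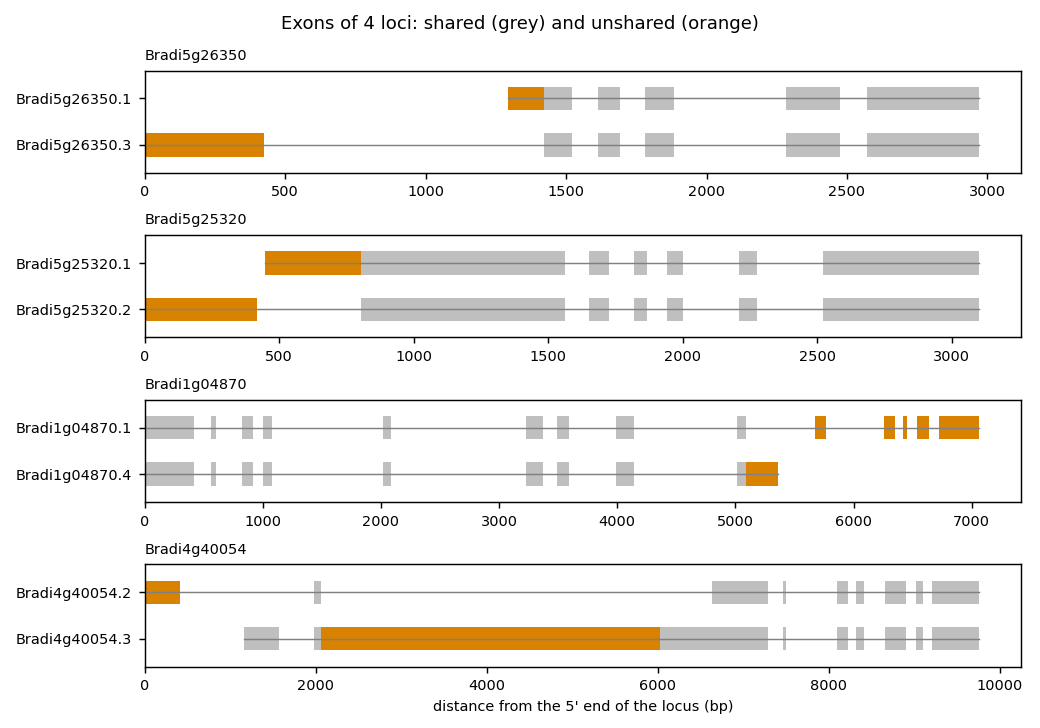
Exons of the countable transcripts of 4 loci named in the text, drawn 5' to 3' against the distance from the 5' end of the locus in bp, with shared exon in grey and unshared exon in orange. Bradi5g26350 and Bradi5g25320 differ in their first exons, Bradi1g04870 in its last exons, and Bradi4g40054.3 keeps 3961 bp of unshared exon within an intron of Bradi4g40054.2.

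Most separately countable transcripts differed at an end. The unshared exon lay mostly in the transcript's own first exon in 1186 transcripts (49.5%), in its last exon in 884 (36.9%), in an intron that another transcript of the locus splices out in 171 (7.14%) and in an inner exon in 154 (6.43%). Of the 1062 loci with 2 countable transcripts, 435 differed by a first exon on each side and 309 by a last exon on each side, and 81 and 7 further loci had 3 and 4 countable transcripts. The unshared part had a median of 272 bp (quartiles 165 and 450.5 bp) and made up a median of 14.9% of the transcript's exon. The transcripts had a median of 6 exons, against 3 at loci with 1 transcript. Members lay on all 5 chromosomes at 3.10% to 3.97% of the annotated loci, and 47 of them shared exon with another locus.

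Assigned counts at these loci were above those at other loci with alternative transcripts, a contrast that the rule itself favours. Fragments in shared exon were not assigned to a transcript. Transcripts of all loci with 2 or more had a median of 3 unshared bp, against 272 bp in the countable members. These counts therefore do not compare expression between the groups of loci. A member locus had a median of 56.3 counts per library, against 1.67 at the 4910 other loci with 2 or more transcripts and 65 at loci with 1 transcript. The means were 128.4 for members, against 36.7 at the other loci with 2 or more transcripts and 513.8 at loci with 1 transcript. Members held 1.08% ± 0.0141 of all counts in 2,4-D roots and 1.10% ± 0.0609 in untreated roots (SD, n = 3 each; two-sided exact permutation p = 0.6, where 3 against 3 cannot go below 0.10). Library totals ranged from 12528548 to 14146109 counts, and 3 counts correspond to 0.212 to 0.239 per 1000000 of these unadjusted totals. CPM (counts per 1000000 counted fragments) are given throughout on TMM-adjusted totals, so 3 counts differ somewhat from this range in CPM. Only 12 member loci had 0 counts in all libraries, while 106 of the 2395 countable transcripts did. The expression filter of the test passed 1390 countable transcripts. At 492 loci 1 countable transcript passed it, and at 222 loci none did. Untreated replicate 3 differed from untreated replicates 1 and 2 in the use of first exons and in the level of long against short loci, as given with the starts, and results that turn on it are given with and without it.

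Levels are given as CPM per kb of unshared exon, since fragments that lie in shared exon were not assigned to a transcript in this counting. By this measure inner exons were highest, with a median of 9.06 CPM per unshared kb over 154 transcripts, followed by first exons (4.72), last exons (2.60) and retained introns (2.42), with wide overlap. The quartiles were 3.06 and 22.7 for inner exons and 0.333 and 10.1 for retained introns. The shortest unshared parts (100 to 194 bp) had a median of 2.31 CPM per unshared kb, against 5.67 in the longest ones (384 to 4200 bp). Counting of fragments that reach from an unshared part into shared exon is not described, and its part in the lower values of short parts was not tested. Just inside the 100 bp limit, the parts that decided membership at 112 loci, less than 10 bp above it, had a median of 1.51 CPM per unshared kb, and just outside it those of 108 loci at 90 to 99 bp had 0.536.

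The highest summed level belonged to Bradi2g58360 (chromosome 2, minus strand, 56315496 to 56319743). Its transcript Bradi2g58360.3, told apart by an inner exon of 145 unshared bp, had 496, 588 and 333 CPM per unshared kb in 2,4-D replicates 1, 2 and 3 and 485, 744 and 521 in untreated replicates 1, 2 and 3. Its transcript Bradi2g58360.2, told apart by a first exon of 207 bp, had 193, 306 and 551 CPM per unshared kb in the 2,4-D libraries and 17.1, 48.8 and 390 in the untreated ones. The groups overlapped for each transcript, and untreated replicate 3 was far above untreated replicates 1 and 2 for the first exon. Neither transcript passed the test (edgeR adjusted p = 0.578 and 0.569).

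At the 7 loci next in level the same transcript led in every library. Bradi2g53082.2 held 98.7% ± 0.140 of its locus in 2,4-D roots and 98.7% ± 0.748 in untreated roots, where a transcript's share is its CPM per unshared kb over the sum of the countable transcripts of the locus (SD, n = 3 each here and below). Bradi3g34250.3 held 99.2% ± 0.347 in 2,4-D roots and 99.3% ± 0.275 in untreated roots. The other transcript of that locus, Bradi3g34250.1, keeps an intron and held at most 1.03% in any library. Bradi1g08570.2 held 93.7% ± 3.52 in 2,4-D roots and 95.7% ± 1.14 in untreated roots although its level spread from 96.0 to 540 CPM per unshared kb among untreated libraries. Bradi3g04730.4, Bradi1g19970.3 and Bradi2g52390.1 held 86.3% ± 2.69, 66.3% ± 2.78 and 73.7% ± 4.78 in 2,4-D roots and 87.5% ± 1.26, 63.4% ± 2.25 and 75.9% ± 3.07 in untreated roots. Bradi3g36480 was the closest to even of these, with 58.8% ± 7.90 for Bradi3g36480.1 in 2,4-D roots and 59.3% ± 7.01 in untreated roots. The shares overlapped between the groups at each of these 7 loci.

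At most loci with enough counts, 1 transcript dominated. Shares were read at the 606 loci with a mean of 50 or more counts per library. The leading transcript, the one with the highest mean level over all libraries, held a median of 82.3% in 2,4-D roots (quartiles 66.0% and 93.7%) and 80.4% in untreated roots (63.8% and 92.6%). It held 90% or more at 198 loci in 2,4-D roots and 187 in untreated roots, and less than 60% at 107 loci in 2,4-D roots and 124 in untreated roots. Inner exons led in 60 of 91 cases (65.9%), first exons in 322 of 686 (46.9%), last exons in 195 of 417 (46.8%) and retained introns in 29 of 68 (42.6%). These rates do not compare the kinds, since many leads were fixed by pairs of 1 kind. Both of 2 countable transcripts had a first exon part at 258 loci and a last exon part at 156. Both had an inner exon part at 4 loci and a retained intron at 7. The transcript with the number 1 was countable at 452 of the loci and led at 74.8% of those. The transcript with the longest unshared part led at 64.7% of the 606 loci.

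**Figure D2:**
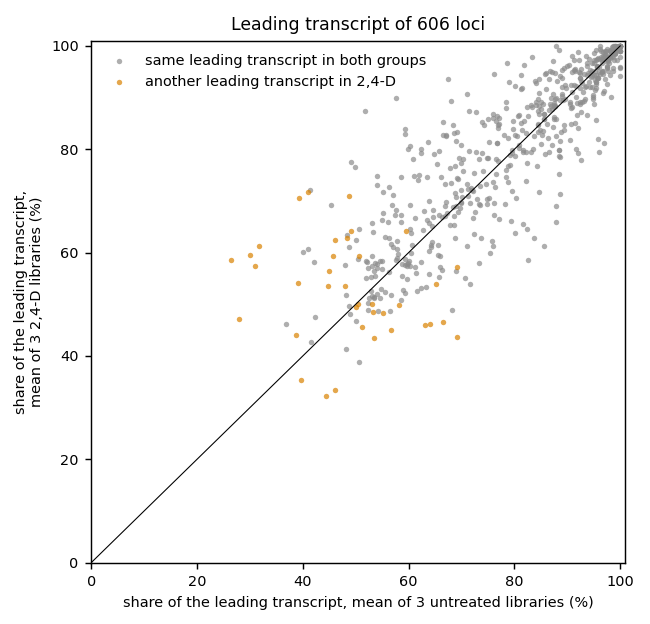
Mean share of the leading transcript in 3 2,4-D libraries (vertical axis, %) against 3 untreated libraries (horizontal axis, %), 1 point per locus, for 606 loci with the line of equal shares. Most points follow the line. The 37 loci with another leading transcript in 2,4-D roots, in orange, lie near the middle, which a change of lead between the groups itself favours.

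The leading transcript rarely changed. It was the same in all 6 libraries at 478 of 606 loci (78.9%). At 37 loci (6.11%) the transcript with the highest mean level in 2,4-D roots was another than in untreated roots. Over all 6 libraries the leading transcript of these loci held a median of 50.8% (37.5% to 63.2%). A change of lead between the groups itself favours such a value. Shares within a group were not even at all of them, as at Bradi5g26350 below. The leading share differed by a median of 3.69 percentage points between the groups, against a median SD between libraries of 5.28 points, and it differed by 20 points or more at 26 loci. It was apart between the groups, with no overlap, at 75 of 606 loci (12.4%). Over all 528 loci with 2 or more transcripts tested, the count share of the most counted transcript was apart at 12.9%, and at 59 of the 443 members among them (13.3%), which is near that background. Without untreated replicate 3 the number with another leading transcript was 60 of 597 loci.

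Untreated replicate 3 stood apart from the other untreated libraries in the use of first exons. At 258 loci with 2 countable transcripts that differ by their first exons, the start that lies upstream had a median share of 78.7%, 78.4% and 80.8% in 2,4-D replicates 1, 2 and 3. In untreated replicates 1, 2 and 3 it had 66.1%, 67.8% and 80.3%. Untreated replicates 1 and 2 were thus below all 2,4-D libraries and untreated replicate 3 lay among them. The mean difference was 7.91 points (79.3% ± 1.29 in 2,4-D roots and 71.4% ± 7.76 in untreated roots, SD, n = 3 each; two-sided exact permutation p = 0.3, adjusted p = 0.75 over 3 comparisons). Without untreated replicate 3 it was 12.4 points (two-sided exact permutation p = 0.1, the smallest that 3 against 2 libraries can give). That library was set apart on these same shares, so this p follows from leaving it out and is not read as evidence. The upstream share was higher in 2,4-D roots at 180 of the 258 loci and lower at 73, and all 2,4-D libraries lay above all untreated ones at 26 loci and below them at 13. The share in untreated replicate 3 was above both other untreated libraries at 145 loci and below both at 52.

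**Figure D3:**
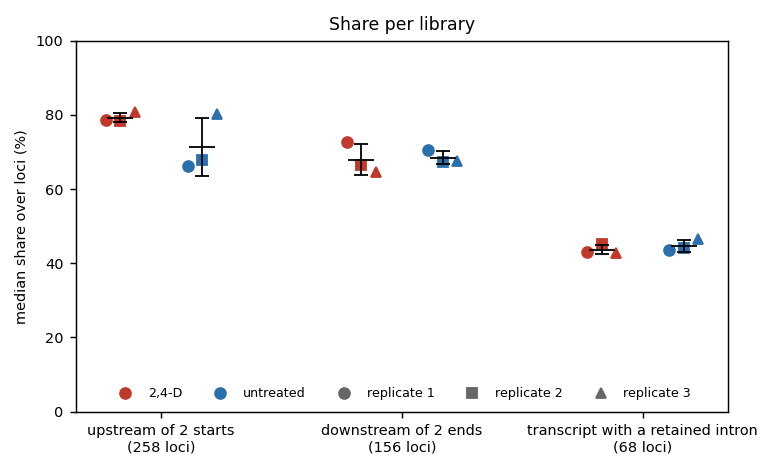
Median share over loci (%) per library of the upstream of 2 starts, of the downstream of 2 ends and of the transcript with a retained intron, for 2,4-D and untreated libraries, with marker shape for the replicate and bars for mean ± SD of 3 libraries. The upstream start lies at 66.1% and 67.8% in untreated replicates 1 and 2 and at 78.4% to 80.8% in the other 4 libraries, while ends and retained introns overlap between the groups.

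The level of long against short loci also differed between untreated replicate 3 and the other untreated libraries. Among 1-transcript loci with a mean of 5 CPM or more, the log2 deviation from the mean of the libraries was higher for loci of 3000 bp or more than for those under 1000 bp by 0.17 and 0.25 in untreated replicates 1 and 2, and lower by 0.19 in untreated replicate 3. In the 2,4-D libraries the same difference was -0.03, -0.05 and -0.05. The upstream share was also read by exon length of the transcript, in other classes than those of the loci above. Among the shortest transcripts (up to 1830 bp) it was 73.7%, 70.6% and 79.9% in 2,4-D replicates 1, 2 and 3 and 64.2%, 64.8% and 78.6% in untreated replicates 1, 2 and 3. Among the longest (2499 bp or more) it was 80.8%, 79.4% and 76.5% in the 2,4-D libraries and 66.5%, 69.9% and 79.4% in the untreated ones. Untreated replicates 1 and 2 were lowest in both classes, and in the longest untreated replicate 3 was above 2,4-D replicate 3. Counts pooled over loci are another measure than the median share, and loci with many counts weigh most in them. Over the 258 member loci with 2 starts, the upstream start took 73.1%, 71.7% and 74.7% of pooled counts in the 2,4-D libraries and 65.4%, 67.7% and 73.9% in the untreated ones. At 35 loci outside the members, with 2 transcripts of 20 to 99 unshared bp and a common end, it took 57.1%, 55.7% and 43.1% of pooled counts in the 2,4-D libraries. In the untreated ones it took 47.7%, 60.1% and 56.1%, and untreated replicates 1 and 2 were not the lowest libraries there. At 21 member loci with 1 transcript told apart by a first exon and 1 by a last exon, the first exon transcript held a median of 52.0%, 59.7% and 78.0% in 2,4-D libraries and 64.4%, 67.6% and 75.2% in untreated ones, which overlap. The part of transcript length, library preparation or RNA quality in the shares was not tested.

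The shares of alternative ends and retained introns overlapped between the groups. At 156 loci with 2 last exons, the more downstream end had a median share of 72.6%, 66.6% and 64.7% in 2,4-D libraries and 70.4%, 67.3% and 67.6% in untreated ones. It averaged 68.0% ± 4.11 in 2,4-D roots and 68.4% ± 1.73 in untreated roots (SD, n = 3 each; two-sided exact permutation p = 0.8). Transcripts with a retained intron held a median of 43.7% ± 1.29 of their locus in 2,4-D roots and 44.7% ± 1.56 in untreated roots over 68 transcripts (SD, n = 3 each; two-sided exact permutation p = 0.5). Unspliced precursor RNA and a retained intron give the same counts here.

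Few separately countable transcripts changed in total level. Of 1390 tested, 7 rose (0.504%) and 9 fell (0.647%) in 2,4-D roots (16 or 1.15%, edgeR quasi-likelihood test with Benjamini-Hochberg adjustment). Of all 20061 transcripts tested, 1.48% rose and 0.703% fell (2.18% in all). The median log2 fold change was -0.11 for the members and 0.02 for all transcripts, and 193 members (13.9%) had an unadjusted p under 0.05, against 19.4% of all transcripts. CPM were apart between the groups for 341 members (24.5%), against 27.4% of all transcripts. The share of members that fell was thus near that of the whole table. Their shares that rose, had an unadjusted p under 0.05 or were apart were below it. Member loci had a mean of 128.4 counts per library, against 513.8 at loci with 1 transcript, and the part of lower counts in these shares was not tested. The 16 changed transcripts lay at 15 loci. They were 11 of 740 tested transcripts told apart by a first exon, 4 of 453 by a last exon, 1 of 118 by an inner exon and 0 of 79 by a retained intron. With 1 library left out, edgeR called 1, 2 and 6 members without 2,4-D replicates 1, 2 and 3, and 1, 0 and 17 without untreated replicates 1, 2 and 3. Over the whole table the same fits called 19, 82 and 256 transcripts without 2,4-D replicates 1, 2 and 3, and 72, 0 and 370 without untreated replicates 1, 2 and 3, against 437 with all libraries. The fold changes of the 4 largest rises and 4 largest falls described next, among those with a mean of 5 CPM or more, kept their direction in all these fits and moved by at most 1.28 times. DESeq2 called 98 of the 1390 members, 33 higher and 65 lower, which include the 16, and 2328 transcripts over the whole table of 20061 tested.

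The largest rise among the changed transcripts with a mean of 5 CPM or more was that of Bradi3g09520.3 (chromosome 3, plus strand, 7636201 to 7638435, 4 exons, first exon of 483 unshared bp). It had 48.6, 34.6 and 31.1 CPM in 2,4-D replicates 1, 2 and 3 and 1.21, 1.45 and 1.96 CPM in untreated replicates 1, 2 and 3. Every 2,4-D library was far above every untreated one (log2 fold change 4.62, SE 0.33, edgeR adjusted p = 0.00679). The second transcript of the locus, Bradi3g09520.2, starts farther upstream with a first exon of 505 unshared bp and had 0 counts in all 6 libraries. All counts on the countable transcripts of this locus were thus from the downstream start. Its log2 fold change was 4.40 to 4.81 with 1 library left out, and the call was lost only without untreated replicate 2 (edgeR adjusted p = 0.0667), where no transcript of the table was called.

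Bradi3g03407.1 (chromosome 3, plus strand, 2218016 to 2226036, 14 exons) averaged 9.22 ± 0.786 CPM in 2,4-D roots and 1.74 ± 0.683 CPM in untreated roots (SD, n = 3 each; log2 fold change 2.40, edgeR adjusted p = 0.0283). The other first exon of that locus, Bradi3g03407.2, had 10, 3 and 7 counts in 2,4-D libraries and 5, 0 and 0 in untreated ones, too few to be tested, so the change was measured on the upstream start alone. Bradi3g44990.1 (chromosome 3, plus strand, 46964344 to 46968465) had 65.3, 43.4 and 83.8 CPM in 2,4-D libraries and 17.5, 18.8 and 12.7 CPM in untreated ones (log2 fold change 1.97, edgeR adjusted p = 0.0305). Its downstream start, Bradi3g44990.4, had a similar log2 fold change of 1.75 that did not pass (edgeR adjusted p = 0.139), and Bradi3g44990.1 held 92.4% ± 2.81 of the locus in 2,4-D roots and 90.6% ± 2.60 in untreated roots. Counts on both starts were higher in 2,4-D roots while the shares overlapped. Bradi2g44090.1 (chromosome 2, plus strand, 44598436 to 44601330, last exon of 597 unshared bp) averaged 8.15 ± 0.947 CPM in 2,4-D roots and 2.92 ± 0.365 CPM in untreated roots (SD, n = 3 each; log2 fold change 1.47, edgeR adjusted p = 0.0498).

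**Figure D4:**
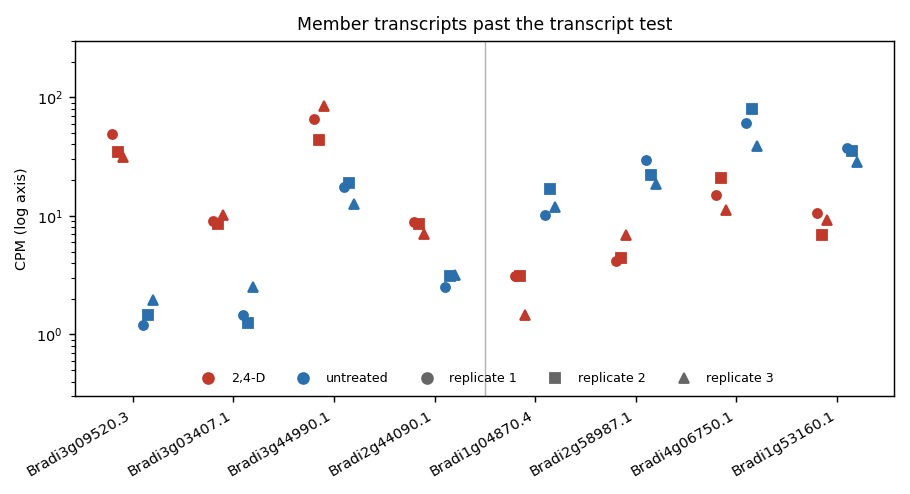
CPM on a log axis in each library for the 4 transcripts with the largest rise, left of the line, and the 4 with the largest fall, right of it, among called members with a mean of 5 CPM or more, with 2,4-D libraries left of untreated ones and marker shape for the replicate. The groups do not overlap for any of the 8, and Bradi3g09520.3 shows the widest gap, 31.1 to 48.6 CPM against 1.21 to 1.96 CPM.

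Bradi1g04870 was the only locus with more than 1 called transcript, and both fell. It lies on chromosome 1, minus strand, 3230937 to 3238001, and its transcripts differ in their 3' ends. Bradi1g04870.4, which ends early within 9 exons, had 3.08, 3.13 and 1.46 CPM in 2,4-D replicates 1, 2 and 3 and 10.2, 16.8 and 11.8 CPM in untreated replicates 1, 2 and 3 (log2 fold change -2.33, SE 0.40, edgeR adjusted p = 0.0388). Bradi1g04870.1, with 14 exons, averaged 35.8 ± 4.71 CPM in 2,4-D roots and 103.7 ± 20.3 CPM in untreated roots (SD, n = 3 each; log2 fold change -1.53, SE 0.22, edgeR adjusted p = 0.0249). The longer transcript led in every library, and its share of 85.5% ± 4.09 in 2,4-D roots and 76.5% ± 5.50 in untreated roots overlapped between single libraries (usage adjusted p = 0.671, edgeR).

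The other named falls were of leading first exons whose partners had fold changes in the same direction or counts near 0. Bradi2g58987.1 (chromosome 2, plus strand, 56804069 to 56805965) averaged 5.16 ± 1.54 CPM in 2,4-D roots and 23.4 ± 5.52 CPM in untreated roots (SD, n = 3 each; log2 fold change -2.18, edgeR adjusted p = 0.0280), and its partner had at most 2 counts in any library. Bradi4g06750.1 (chromosome 4, plus strand, 5680033 to 5684103) had 15.1, 20.7 and 11.2 CPM in 2,4-D libraries and 60.3, 80.03 and 39.01 CPM in untreated ones (log2 fold change -1.93, edgeR adjusted p = 0.0493). The 2 other first exons of that locus had log2 fold changes of -1.21 and -1.39 that did not pass (edgeR adjusted p = 0.154 and 0.102). Bradi1g53160.1 (chromosome 1, plus strand, 51773274 to 51778427) averaged 8.86 ± 1.82 CPM in 2,4-D roots and 33.7 ± 4.88 CPM in untreated roots (SD, n = 3 each; log2 fold change -1.93, edgeR adjusted p = 0.0228), with its partner at -1.54 (edgeR adjusted p = 0.134). Of the 16 called transcripts, none had a tested partner with the opposite direction. At the 410 loci with exactly 2 countable transcripts tested, both log2 fold changes had the same sign at 267 (65.1%), 87 both higher and 180 both lower, and they differed by a median of 0.39.

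Whether the transcripts of a locus changed relative to each other was tested directly (edgeR diffSpliceDGE). This test took every transcript past the filter, also those under 100 bp of unshared exon. With only those of 100 bp or more it tested 436 member loci and called 0. Of 443 member loci tested, 0 had an adjusted p under 0.05, as had 0 of all 528 loci with 2 or more tested transcripts (0%), and the lowest adjusted p was 0.244. An unadjusted p under 0.05 was found at 36 members (8.13%), against 7.58% of all 528 loci. limma voom with diffSplice also called 0 members, with 37 at an unadjusted p under 0.05. Without untreated replicate 3 the locus F test called 28 of 491 members (edgeR, lowest adjusted p = 0.0227), and 107 (21.8%) had an unadjusted p under 0.05. The share over all loci tested for usage is not given for that fit. These counts are therefore not read as particular to the members. The Simes test of diffSpliceDGE, which combines the tests of single transcripts, called 0 members in that fit (edgeR, lowest adjusted p = 0.251, with 34 at an unadjusted p under 0.05) and 0 with all libraries (5 at an unadjusted p under 0.05). Of the 28 called by the F test, 18 had 2 countable first exons, and the upstream one had the higher mean share in 2,4-D roots at 17 of them, against 180 of 258 over all such loci. The untreated libraries left in that fit were those with the lower median upstream shares, so the choice of libraries itself favours calls in this direction. The 17 of 18 are therefore not read as separate evidence of a difference in starts. In the fits without any other single library 0 members were called, with 31 to 37 at an unadjusted p under 0.05.

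The 8 loci with the smallest usage p are described with that limit, as none passed the adjusted threshold. Bradi5g26350 (chromosome 5, minus strand, 27495508 to 27498478) had the smallest (adjusted p = 0.244, edgeR). Its upstream start, Bradi5g26350.3, had 120, 99 and 80 counts in 2,4-D replicates 1, 2 and 3 and 48, 107 and 121 in untreated replicates 1, 2 and 3. Its downstream start, Bradi5g26350.1, had 10, 17 and 11 counts in the 2,4-D libraries and 40, 42 and 41 in the untreated ones. The upstream start therefore held 78.5%, 64.0% and 68.9% in 2,4-D libraries and 26.8%, 43.7% and 47.4% in untreated ones, with no overlap. The downstream start was lower in every 2,4-D library, and the counts of the upstream start overlapped.

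At Bradi5g25320 (chromosome 5, minus strand, 26799897 to 26802999; usage adjusted p = 0.244, edgeR) the upstream start was the lower one in 2,4-D roots. Bradi5g25320.2 had 45, 56 and 50 counts in 2,4-D replicates 1, 2 and 3 and 132, 208 and 162 in untreated replicates 1, 2 and 3, and it passed the test of single transcripts (log2 fold change -1.78, SE 0.27, edgeR adjusted p = 0.0284). Bradi5g25320.1, whose first exon lies downstream, had 83, 121 and 117 counts in the 2,4-D libraries and 124, 162 and 120 in the untreated ones (log2 fold change -0.40, edgeR adjusted p = 0.476). The downstream start held 71.0% ± 2.51 in 2,4-D roots and 48.8% ± 3.13 in untreated roots (SD, n = 3 each). Untreated replicate 3 lay with the other untreated libraries here, at 46.4%.

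**Figure D5:**
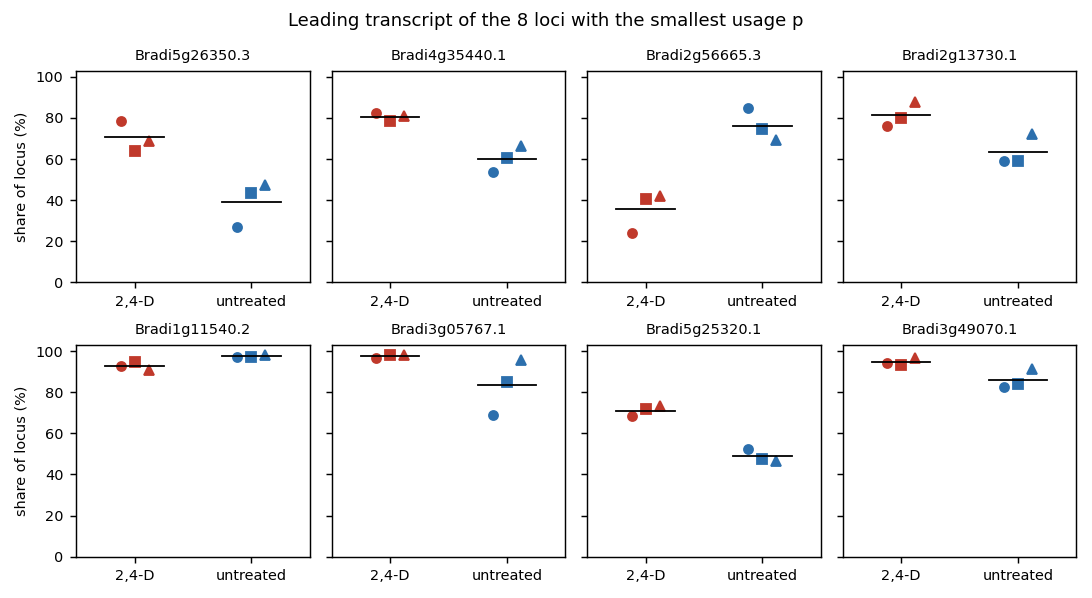
Share of the leading transcript (%) in each library at the 8 member loci with the smallest usage p, with 2,4-D libraries left of untreated ones, marker shape for the replicate and a line for the mean of 3. The shares do not overlap between the groups at any of the 8, and untreated replicate 3 is the untreated library nearest to the 2,4-D values at all but Bradi1g11540.2 and Bradi5g25320.1.

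At 4 of the other loci the upstream start took a larger share in 2,4-D roots. Bradi4g35440.1 (chromosome 4, plus strand, 40960629 to 40966652) held 80.5% ± 1.90 in 2,4-D roots and 60.2% ± 6.28 in untreated roots (SD, n = 3 each; usage adjusted p = 0.244, edgeR). Bradi2g13730.1 (chromosome 2, plus strand, 12275049 to 12286498) held 76.2%, 80.2% and 87.8% in 2,4-D libraries and 59.1%, 59.3% and 72.4% in untreated ones (usage adjusted p = 0.244, edgeR). Bradi3g05767.1 held 96.8%, 98.2% and 98.3% in 2,4-D libraries and 69.1%, 85.0% and 95.8% in untreated ones (usage adjusted p = 0.244, edgeR). Bradi3g49070.1, the most counted of these, held 94.2%, 93.2% and 96.7% in 2,4-D libraries and 82.4%, 83.9% and 91.5% in untreated ones (usage adjusted p = 0.287, edgeR). At each of these 4 loci untreated replicate 3 was the untreated library nearest to the 2,4-D range.

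Bradi1g11540 went the other way at a low level. Its downstream start, Bradi1g11540.1, had 12, 11 and 10 counts in 2,4-D replicates 1, 2 and 3 and 4, 5 and 3 in untreated replicates 1, 2 and 3, a share of 7.28% ± 2.00 in 2,4-D roots and 2.58% ± 0.426 in untreated roots (SD, n = 3 each; usage adjusted p = 0.244, edgeR). At Bradi2g56665 a transcript with its own last exon, Bradi2g56665.2, held 64.4% ± 10.2 in 2,4-D roots and 23.7% ± 7.87 in untreated roots (SD, n = 3 each; usage adjusted p = 0.244, edgeR), on 36.0 counts per locus and library. Without untreated replicate 3, 6 of the 8 loci passed the F test for usage, all but Bradi1g11540 and Bradi5g25320, and by the Simes test none did.

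Another transcript led in 2,4-D roots, with shares apart between the groups, at 5 of the 37 loci, among them Bradi5g26350 and Bradi5g25320. At Bradi4g40054 (chromosome 4, plus strand, 44667385 to 44677148) a transcript with a retained intron of 3961 unshared bp, Bradi4g40054.3, held 42.9%, 43.3% and 45.0% in 2,4-D libraries and 86.6%, 75.8% and 45.0% in untreated ones, where the first exon of Bradi4g40054.2 had 4, 12 and 46 counts. Untreated replicate 3 barely cleared the 2,4-D range. At Bradi4g42300 the upstream start, Bradi4g42300.3, held 46.2% ± 6.89 in 2,4-D roots and 64.1% ± 2.65 in untreated roots (SD, n = 3 each; usage adjusted p = 0.423, edgeR). At Bradi1g26310 the downstream start, Bradi1g26310.3, held 46.0% ± 9.58 in 2,4-D roots and 63.0% ± 4.01 in untreated roots (SD, n = 3 each; usage adjusted p = 0.638, edgeR).

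Loci with even shares included one set by single libraries. At Bradi2g12340 the upstream start, Bradi2g12340.1, had 29, 60 and 300 counts in 2,4-D replicates 1, 2 and 3 and 9, 8 and 164 in untreated replicates 1, 2 and 3, while the other start, Bradi2g12340.2, had 193, 171 and 131 counts in the 2,4-D libraries and 99, 164 and 143 in the untreated ones. The even mean thus hid a share of the upstream start of 15.0% to 89.2%, highest in replicate 3 of both groups. Bradi4g13987 was even in each library: a first exon of 4200 unshared bp (Bradi4g13987.3) held 42.1% to 54.1% in 2,4-D libraries and 49.8% to 51.7% in untreated ones, beside a retained intron (Bradi4g13987.1), and the other countable transcript, Bradi4g13987.2, had 0 counts.

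Of the 7 loci with 4 countable transcripts, the 3 named here spread their counts over several transcripts. At Bradi3g53960 (chromosome 3, plus strand, 54592302 to 54607470) the first exon of Bradi3g53960.4 held 47.2% ± 6.49 in 2,4-D roots and 27.9% ± 14.7 in untreated roots, and the last exon of Bradi3g53960.1 held 30.8% ± 3.37 in 2,4-D roots and 41.5% ± 2.60 in untreated roots (SD, n = 3 each). The usage test did not pass (adjusted p = 0.788, edgeR). At Bradi5g06120, Bradi5g06120.10, Bradi5g06120.12 and Bradi5g06120.15 each held 23.1% to 49.2% in every library, and the retained intron of Bradi5g06120.14 had a single count. At Bradi3g49040, with 4 first exons, Bradi3g49040.3 led in all libraries with 48.0% ± 9.99 in 2,4-D roots and 48.9% ± 9.53 in untreated roots (SD, n = 3 each), and Bradi3g49040.2 had 1, 6 and 42 counts in 2,4-D libraries and 1, 1 and 7 in untreated ones, highest in replicate 3 of both groups.

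The spread of shares between libraries was smaller at loci with more counts. Among loci with at least 50 and under 200 counts the SD of the leading share between libraries had a median of 5.32 points in 2,4-D roots and 5.96 points in untreated roots (404 loci). At 200 counts or more it was 2.78 points in 2,4-D roots and 3.33 points in untreated roots (202 loci). The leading share was also higher there, with a median of 86.0% against 78.4%, and depth and share were not separated.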

How the data were processed

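The authors deposited 1 table of raw counts per transcript for 6 libraries. Per the file headers, featureCounts assigned read pairs to transcripts of annotation version 2.1, and per the submitters' processing notes its version was 1.4.3. It took pairs of 50 to 1000 bp, summed exons by transcript, and set neither strand nor multiple overlap. Counts therefore do not separate strands, although per the labels' protocols the library kit keeps strand. Unshared exon was computed from the deposited exon coordinates against all transcripts of the table. Counts were fitted with edgeR 4.0.16 in R 4.3.3 over the whole table (TMM scaling, filter with a minimum count of 10, quasi-likelihood F test, Benjamini-Hochberg adjustment, threshold 0.05), usage with diffSpliceDGE on the same fit, alternatives with DESeq2 1.42.0 and limma 3.58.1, and shares with Python 3.11.15. CPM use TMM-adjusted totals. A standard error is the absolute log2 fold change over the root of its F. Library totals ranged from 12528548 to 14146109 counts, and 3 counts is the floor used. Nothing says that libraries came from separate plants, so p-values measure the spread between these libraries.

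The members, lists and rules were chosen with earlier results of these data known, and the comparisons of starts, ends and retained introns were added after values were seen. Named loci were the 8 with the smallest usage p, the 4 largest rises and 4 largest falls among called members at 5 CPM or more, the 8 with the highest level, up to 6 with another leading transcript and shares apart, the 3 most even with at least 200 counts, and 3 with most countable transcripts. The last were 3 of 7 loci tied at 4 countable transcripts. Gene lists based on product descriptions, shoot markers included, could not be applied.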

Additional observations from a re-analysis of the deposited data

How the results depend on the processing

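Against 1150 loci, a limit of 200 bp of unshared exon left 521, while counting only overlap within a locus or on the same strand gave 1197 and 1195. Of 16 called member transcripts (edgeR), edgeR with another scaling or filter, and limma voom, gave 14 to 16. The DESeq2 Wald test gave 98 members and 2328 transcripts over the whole table, and 0 to 17 members were called with 1 library left out. With replicate number as a block, edgeR called 3 members and 0 loci for usage. Deviations of same-numbered libraries correlated at -0.09, 0.35 and 0.09 for replicates 1, 2 and 3. These values do not settle whether same-numbered libraries share more than a number. Usage calls (0) stayed at 0 in every alternative except the F test without untreated replicate 3, which gave 28, so leaving out 1 library gave 0 to 28. The Simes test gave 0 with all libraries and, chosen after seeing the data, 0 without each library in turn. At a minimum of 20 or 200 counts, 65 and 10 loci had another leading transcript against 37, out of more and fewer loci, and 30 to 60 with 1 library left out; the cause of the last was not tested. Dividing by no length, or by unshared length plus 0.2 kb, gave 28 and 32. The difference of the upstream start share (7.91 points) ranged from 5.27 to 12.4 with 1 library left out. Of the values for named transcripts and loci under alternatives, 146 kept direction and side of the threshold, 47 lost the call, 6 gained it, all without untreated replicate 3, and 0 turned direction. All 47 lost calls were of the named called transcripts, as the loci named for usage had no call to lose. The 146 include those loci staying uncalled, so this number does not measure how stable the transcript calls were.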
